A study of Mus musculus with 32 samples.

Results

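The immediate early genes of neurons were followed across the hippocampus of aged mice treated with AICAR, with leg muscle as the contrast tissue. The group held 10 genes, chosen by name: Fos, Fosb, Junb, Egr1, Egr2, Egr4, Arc, Nr4a1, Npas4 and Dusp1. Every array probe whose platform symbol was one of these was taken, which gave 11 probes of 25697 on the array, for 10 of the 16593 gene symbols it covers. Npas4 had 2 probes and each other gene had 1. The choice used no measured value of these arrays, although it was made with earlier results of the same data known.

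AICAR is a cell-permeable nucleoside that cells convert to an AMP mimic, which activates the energy sensor AMPK. The study asks about cognition and motor coordination after AICAR. RNA was measured on 32 bead arrays of a single colour, 16 of hippocampus and 16 of gastrocnemius muscle, from female C57BL/6J mice aged 23 months. Each tissue had 4 groups of 4 arrays: saline injected for 3 days, and AICAR at 500 mg/kg/day, dissolved in saline and injected into the peritoneum, for 3, 7 or 14 days. All groups were of the same strain, all were killed under isoflurane and perfused with saline, and in all of them the tissue was taken 33 days after the last injection. No group received saline for 7 or 14 days, so the number of AICAR injections and the number of injections cannot be told apart there. Within the labels, samples are numbered in 4 runs of 8, and each run holds both tissues of 1 treatment, so an order of handling and the treatment cannot be told apart either. Neither the number of mice nor whether a muscle and a hippocampal array share a mouse is stated, so the p-values below measure the spread between arrays, which may be technical in part.

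Immediate early genes are transcribed within minutes of a stimulus, without the need for new protein synthesis. In neurons, calcium entry through synaptic receptors and voltage-gated channels activates kinases that phosphorylate the factors CREB, at cAMP response elements (CRE), and SRF with its partners, at CArG boxes, in the promoters of these genes. Most members encode transcription factors, Arc encodes a synaptic protein, and Dusp1 encodes a phosphatase that switches the kinases off again. In the hippocampus their RNA is widely used as a trace of recent neuronal activity, and it decays quickly. Such RNA reports on the time shortly before the tissue was taken.

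Promoter sequences are shown for the members that moved in hippocampus and for Dusp1, because these genes share regulators. The RefSeq promoter table (GRCm38.p6) holds 300 bases for each start site, 250 before it and 50 from it on, and had windows for 8 members that could be used here. Arc has no entry there, and Egr1 was left out of the search, so nothing is said of the motifs of either. Capitals mark every match, on either strand, to the CRE half-site TGACG, the full CRE TGACGTCA (which contains the half-site on both strands), the CArG box, and the letters TATAA; neighbouring matches can run together. Egr2 had 5 windows, and the one shown is the third by position.
Fos, chr12:85473640-85473939, plus strand: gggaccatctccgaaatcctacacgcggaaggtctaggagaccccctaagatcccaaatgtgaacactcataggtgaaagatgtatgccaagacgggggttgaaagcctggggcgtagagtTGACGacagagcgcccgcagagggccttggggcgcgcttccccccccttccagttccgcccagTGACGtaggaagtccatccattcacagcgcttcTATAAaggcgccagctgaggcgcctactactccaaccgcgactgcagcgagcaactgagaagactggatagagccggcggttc
Fosb, chr7:19309996-19310295, minus strand: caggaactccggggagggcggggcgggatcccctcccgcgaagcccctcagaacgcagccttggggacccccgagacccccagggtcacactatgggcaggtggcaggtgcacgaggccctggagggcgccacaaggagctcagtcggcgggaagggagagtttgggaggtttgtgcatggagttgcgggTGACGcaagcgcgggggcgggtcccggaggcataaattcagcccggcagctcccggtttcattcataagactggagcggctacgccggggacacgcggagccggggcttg
Junb, chr8:84978699-84978998, minus strand: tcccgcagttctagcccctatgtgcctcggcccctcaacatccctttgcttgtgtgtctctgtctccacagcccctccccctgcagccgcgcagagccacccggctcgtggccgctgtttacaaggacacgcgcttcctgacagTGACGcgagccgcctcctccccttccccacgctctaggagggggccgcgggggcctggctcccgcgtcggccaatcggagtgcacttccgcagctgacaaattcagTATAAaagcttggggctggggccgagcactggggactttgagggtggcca
Egr2, chr10:67537619-67537918, plus strand: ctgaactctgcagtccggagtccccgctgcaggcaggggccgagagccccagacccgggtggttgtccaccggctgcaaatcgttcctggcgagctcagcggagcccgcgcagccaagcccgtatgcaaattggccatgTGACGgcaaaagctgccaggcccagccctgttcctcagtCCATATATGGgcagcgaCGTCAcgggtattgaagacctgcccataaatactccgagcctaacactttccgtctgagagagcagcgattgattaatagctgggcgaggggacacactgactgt
Egr4, chr6:85513540-85513839, minus strand: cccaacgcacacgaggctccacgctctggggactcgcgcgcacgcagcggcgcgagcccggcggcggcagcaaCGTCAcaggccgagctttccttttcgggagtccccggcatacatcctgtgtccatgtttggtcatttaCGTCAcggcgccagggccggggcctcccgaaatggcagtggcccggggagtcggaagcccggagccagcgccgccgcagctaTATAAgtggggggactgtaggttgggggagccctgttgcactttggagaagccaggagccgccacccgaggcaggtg
Dusp1, chr17:26508423-26508722, minus strand: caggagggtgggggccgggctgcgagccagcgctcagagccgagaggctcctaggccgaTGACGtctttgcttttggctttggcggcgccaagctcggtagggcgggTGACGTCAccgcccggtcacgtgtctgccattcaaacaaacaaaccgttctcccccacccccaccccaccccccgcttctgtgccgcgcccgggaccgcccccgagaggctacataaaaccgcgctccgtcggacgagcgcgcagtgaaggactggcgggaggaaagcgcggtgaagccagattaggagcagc

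The half-site TGACG was found in at least 1 window of all 8 members, against 20.8% of the 32817 windows in the whole table. In Fos it starts 66 and 129 bases before the start site, the nearer match lying upstream of a TATAA that starts 33 bases before it. Egr4 also has 2 half-sites and a TATAA, which starts 27 bases before its start site. The full CRE was found in Dusp1 alone among the 8, 143 bases before the start, against 1.79% of all windows. The CArG box was found in Egr2 alone among the 8, 72 bases before the start in the window shown, against 1.63% of all windows. Egr1 was not searched. TATAA was found for 5 of the 8 genes (Egr2 in a window not shown, Egr4, Fos, Junb and Npas4), against 24.9% of all windows. The member counts are per gene, with 5 windows for Egr2, while the shares are per window, so they are unlike measures. The windows shown hold 58.7% to 68.3% G and C, beside a median of 52.7% over all windows. The shares were not matched for this, so no enrichment is read from them. A match describes the letters in these windows and is neither a binding site nor a cause, and a missing match says nothing of the factor.

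Values are log2 levels: the deposited intensities after background correction and quantile normalization within the tissue. Only for the comparisons between tissues were the arrays of both tissues normalized together. A probe counts as detected on an array when its detection p-value, which compares it with that array's negative controls, is below 0.05. Each array detected 11695 to 13225 probes. The 7- and 14-day arrays stood apart from the others in both tissues. The median intensity of probes at background (detection p above 0.5) was 146.6 to 161.2 on them against 114.55 to 126.1 on the saline and 3-day arrays in hippocampus, and 142.1 to 168.3 against 114.3 to 133.6 in muscle. After normalization the first principal component, which held 36.2% of the hippocampal and 44.9% of the muscle variance, separated the same arrays without overlap. The number of arrays limits the precision. Of the neuron markers with a probe, 5 of 8 (Rbfox3, Syt1, Syp, Stmn2 and Map2) were detected on all 16 hippocampal arrays, while the probes for Nefl, Snap25 and Tubb3 were detected on none. Of the 7 skeletal muscle markers, 6 were detected on no hippocampal array and all 7 on every muscle array.

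Of the 11 member probes, 9 were detected on at least 4 of the 16 hippocampal arrays and were tested. Fos, Junb, Egr1, Egr2, Egr4, Arc and Dusp1 were detected on every hippocampal array. Fosb was detected on 10 arrays and the better Npas4 probe on 11. The probe for Nr4a1, an orphan nuclear receptor, and the other Npas4 probe were detected on none of the 32 arrays, so these data hold no measurement of Nr4a1 above background. Fosb passed the filter through its AICAR arrays, being detected on 0 of 4 saline arrays.

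**Figure D1:**
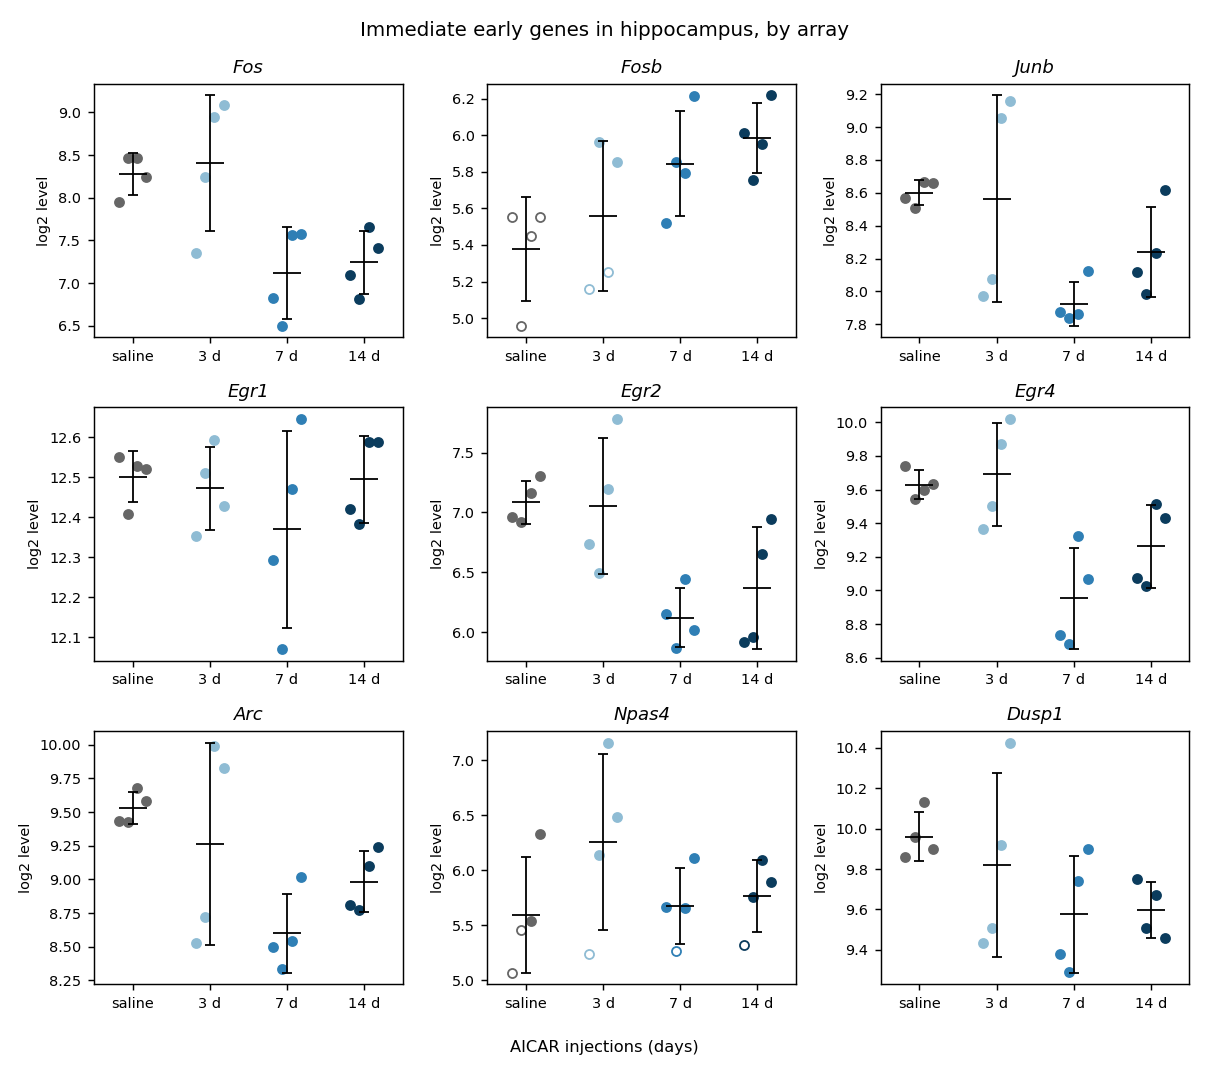
Log2 level of the 9 tested immediate early genes on each of the 16 hippocampal arrays, by days of AICAR; each panel has its own scale. Filled points were detected and open points were not, and the bar and whiskers give the mean and SD of 4 arrays. Fos, Junb, Egr2, Egr4 and Arc sit lower at 7 days than in saline without overlap, while Egr1 stays near 12.5 in every group.

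After 7 days of AICAR, 5 of the 9 tested members were lower in hippocampus than in saline and none was higher: Fos, Junb, Egr2, Egr4 and Arc. Over all 13659 probes tested, 27.1% were called in this comparison at an adjusted p below 0.05 (limma, Benjamini-Hochberg), 14.0% as lower. The median change of the 9 members was -0.68 on the log2 scale, beside -0.03 over all probes. In these 5 genes the normalized 7-day and saline levels did not overlap. The deposited intensities, before correction and normalization, did overlap in each of the 5. For Fos they were 265.6 to 432.5 after 7 days against 309.1 to 481.1 in saline, and for Arc 574.9 to 809.4 against 667.9 to 967.2. For Junb they were 443.4 to 504.8 against 412.7 to 536.3, and for Egr2 219.8 to 277.6 against 212.9 to 266. For Egr4 they were 669.8 to 1138.2 against 753.9 to 919.6. The deposited ranges of Junb, Egr2 and Egr4 thus showed no fall, which appeared only in the processed levels. In the other 4 members the normalized levels overlapped. How many of all tested probes were likewise free of overlap is not given, here or for the comparisons below.

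Fos, which pairs with Jun proteins to form the AP-1 factor, had saline levels of 7.95, 8.47, 8.47 and 8.24. Its 7-day levels were 6.83, 6.50, 7.56 and 7.58, all below the lowest saline array. Fos changed by -1.16 ± 0.33 on the log2 scale, or 2.24-fold lower (model standard error, adjusted p = 0.0171). Junb, a Jun family protein that pairs with Fos, stood at 8.57, 8.51, 8.66 and 8.66 in saline and at 7.88, 7.84, 7.86 and 8.12 after 7 days. It changed by -0.68 ± 0.22 (adjusted p = 0.0353). The Junb call was the least firm of the 5: it was lost in 7 of the 8 fits that left out 1 array, with adjusted p up to 0.0773.

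Egr2 and Egr4 belong to the zinc finger family of early growth response factors. Egr2 read 6.96, 6.92, 7.16 and 7.30 in saline against 6.15, 5.87, 6.45 and 6.02 after 7 days, a change of -0.96 ± 0.26 (1.95-fold lower, adjusted p = 0.0126). Egr4 read 9.74, 9.54, 9.60 and 9.64 against 8.73, 8.68, 9.33 and 9.07, a change of -0.68 ± 0.16 (adjusted p = 0.00689). Both calls held in all 8 fits that left out 1 array. Arc, whose protein regulates AMPA receptor endocytosis and forms capsid-like shells, fell from 9.44, 9.43, 9.68 and 9.58 in saline to 8.50, 8.34, 8.54 and 9.02. That is a change of -0.93 ± 0.27, or 1.91-fold lower (adjusted p = 0.0174). Without replicate 2 of the 7-day group, Fos and Arc missed the threshold (adjusted p = 0.0585 and 0.0515) as did Junb, and 2 members, Egr2 and Egr4, passed it.

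The remaining members were not called after 7 days. Egr1, the brightest of them and the 98.7th percentile of all hippocampal probes, read 12.55, 12.41, 12.53 and 12.52 in saline and 12.29, 12.07, 12.47 and 12.65 after 7 days. Its change was -0.13 with a 95% interval from -0.35 to 0.09 (adjusted p = 0.379), so a fall as large as that of Fos lies outside the interval. Dusp1 read 9.86, 9.96, 10.13 and 9.90 in saline against 9.38, 9.29, 9.74 and 9.90, a change of -0.38 ± 0.18 that missed the threshold (adjusted p = 0.134). Npas4, a neuron-specific factor induced by calcium, was near the detection limit: 2 of 4 saline and 3 of 4 7-day arrays detected it, and its change was 0.08 ± 0.33.

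The sizes at 7 days depended on the processing. With no background correction the changes were -0.70 for Fos, -0.41 for Egr2, -0.74 for Arc, -0.56 for Egr4 and -0.47 for Junb, and all 5 passed the threshold. When arrays were only shifted to a common median (median scaling), the median over all probes moved from -0.03 to 0.18, and 93.2% of the calls were higher, against 48.4% as reported. Relative to that shifted median, the change was -1.05 for Fos, -0.92 for Egr2, -0.82 for Arc, -0.57 for Egr4 and -0.55 for Junb. The changes as reported, relative to their own median, were -1.13, -0.93, -0.90, -0.64 and -0.64. Under median scaling Fos, Egr2 and Arc passed the threshold as lower, Junb (adjusted p = 0.159) and Egr4 (adjusted p = 0.101) did not, and Fosb passed it as higher. With array weights in the limma fit, 6 members passed it as lower, Dusp1 among them (-0.44, adjusted p = 0.0494). Fosb passed it there as higher (adjusted p = 0.0446).

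**Figure D2:**
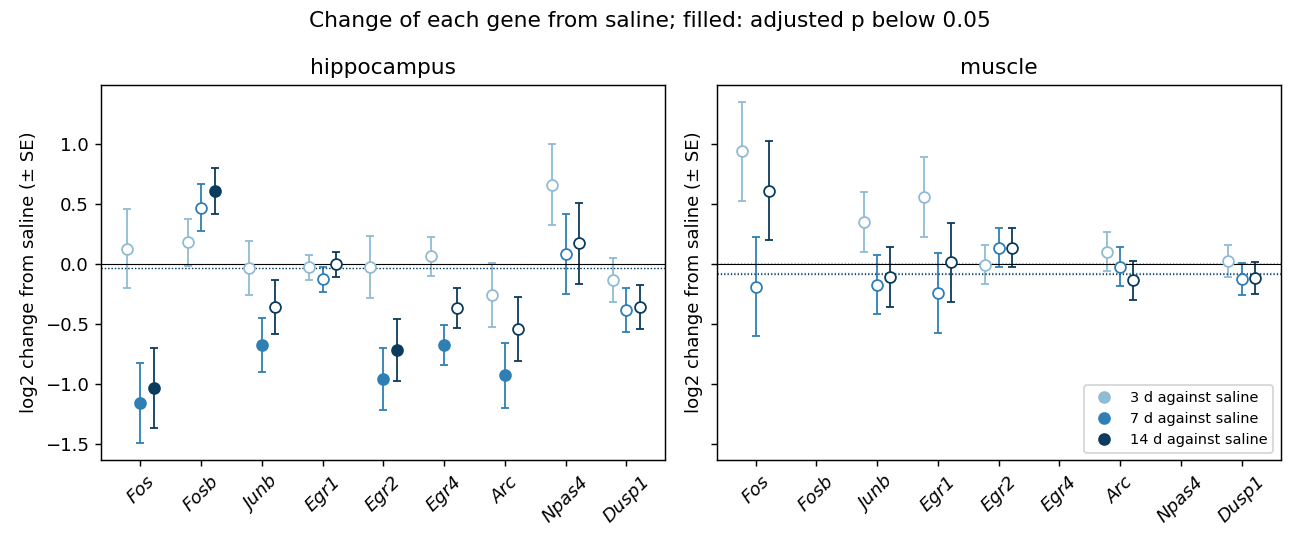
Log2 change from saline with its standard error for each tested member after 3, 7 and 14 days of AICAR, in hippocampus (left) and muscle (right); filled points have an adjusted p below 0.05 and dotted lines mark the median change of all probes. Filled points are Fos, Junb, Egr2, Egr4 and Arc at 7 days and Fos, Egr2 and Fosb at 14 days, all in hippocampus.

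After 14 days, 2 of the 9 members were lower in hippocampus (Fos and Egr2) and 1 was higher (Fosb). Fosb had passed the detection filter only through AICAR arrays, where it read higher, so the filter favoured that direction. Over all probes, 29.6% were called, 15.9% as lower. The 14-day levels of Fos were 7.10, 6.81, 7.66 and 7.41, again all below the lowest saline array, a change of -1.04 ± 0.33 (adjusted p = 0.0282). Egr2 stood at 5.92, 5.96, 6.65 and 6.94, where the highest array overlapped the lowest saline one, with a change of -0.72 ± 0.26 (adjusted p = 0.0479). Both rested on few arrays. The Fos call was lost in 5 of 8 fits that left out 1 array (adjusted p up to 0.0846) and the Egr2 call in 6 of 8 (up to 0.141). Processing alone also ended the Egr2 call, under median scaling (adjusted p = 0.0921), cyclic loess (0.0558), the authors' series values (0.0763) and no detection filter (0.0775). It ended the Fos call under trended robust variance (adjusted p = 0.0506). The count of members called ran from 0, without replicate 1 of the 14-day group or replicate 2 of saline, to 2. It was 1 without replicate 2 of the 14-day group and without replicate 3 or replicate 4 of saline.

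Fosb, another Fos family gene, whose truncated splice form accumulates with repeated stimulation in the brain, went the other way, in the dim range. It read 5.55, 4.96, 5.45 and 5.55 on the saline arrays, none of which detected it, and 6.01, 5.76, 5.95 and 6.22 on the 14-day arrays, all of which did. The 14-day level was at least 1.35-fold higher than the saline detection limit, with group means of 5.99 and 5.38 (adjusted p = 0.0284). After 3 days 2 of 4 arrays detected it, at 5.16, 5.97, 5.25 and 5.85, and after 7 days all 4 did, at 5.52, 5.85, 5.79 and 6.21. At 7 days it was at least 1.22-fold higher and missed the threshold (adjusted p = 0.0865). The 14-day call was lost in 4 of 8 fits without 1 array, with adjusted p up to 0.0941. The arrays that detected it were also those with more detected probes: 12745 to 13225 after 7 and 14 days against 11846 to 12588 in saline. Whether the probe reads the full or the truncated form is not given in the sources used here.

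For Junb, Egr4, Arc and Dusp1 the 14-day changes had the same sign as at 7 days and missed the threshold. Junb read 8.12, 7.98, 8.23 and 8.62 (change -0.36, adjusted p = 0.242). Egr4 read 9.07, 9.03, 9.51 and 9.43 (change -0.37, adjusted p = 0.105) and Arc 8.81, 8.78, 9.10 and 9.24 (change -0.55, adjusted p = 0.137). Dusp1 read 9.75, 9.51, 9.67 and 9.46 (change -0.36, adjusted p = 0.151). In Egr4, Arc and Dusp1 every 14-day array lay below every saline array all the same. Egr1 read 12.42, 12.38, 12.59 and 12.59, with a change of -0.01 and an interval from -0.23 to 0.22. Npas4 changed by 0.17 ± 0.33.

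No member was called after 3 days of AICAR. Over all probes the share called was 0 there as well, with 822 of 13659 probes at an unadjusted p below 0.05 by limma. Among the 9 members 0 had an unadjusted p below 0.05, and the largest change was that of Npas4, 0.66 ± 0.33 (adjusted p = 0.853). What set the 3-day arrays apart was their spread. Arc read 8.53 and 8.72 on replicates 1 and 2 and 9.99 and 9.83 on replicates 3 and 4, so that the saline range of 9.43 to 9.68 fell into the gap between them. Junb read 7.97 and 8.07 against 9.05 and 9.16, with saline between 8.51 and 8.66. Fos read 7.35, 8.24, 8.95 and 9.09, Egr2 read 6.74, 6.50, 7.20 and 7.78, and Dusp1 read 9.43, 9.51, 9.92 and 10.43. Npas4 read 5.24, 6.14, 7.16 and 6.48, and Egr4 read 9.37, 9.50, 9.87 and 10.02. Replicates 3 and 4 were the higher ones in each of these 7 genes. Egr1 did not split in this way, at 12.35, 12.51, 12.59 and 12.43, nor did Fosb, at 5.16, 5.97, 5.25 and 5.85.

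Set against the 3-day group, which received as many injections of AICAR as the controls did of saline, 4 members were lower after 7 days: Fos, Junb, Egr2 and Egr4. Over all probes 26.1% were called, 13.2% as lower. The changes were -1.29 ± 0.33 for Fos (adjusted p = 0.0106), -0.93 ± 0.26 for Egr2 (adjusted p = 0.0160), -0.74 ± 0.16 for Egr4 (adjusted p = 0.00456) and -0.64 ± 0.22 for Junb (adjusted p = 0.0461). The groups did not overlap in Egr2 and Egr4. Junb lost its call in 6 of 8 fits without 1 array. Arc changed by -0.67 ± 0.27 and missed the threshold (adjusted p = 0.0773), while without replicate 1 of the 3-day group its adjusted p was 0.0152. After 14 days against 3 days Fos alone was lower, with a log2 change of -1.16 ± 0.33 (adjusted p = 0.0172), among 27% of all probes called. That count ran from 0 to 3 in the fits that left out 1 array. It was 0 without replicate 2 of the 14-day group or replicate 3 or 4 of the 3-day group, 2 without replicate 3 or 4 of the 14-day group or replicate 1 of the 3-day group, and 3 without replicate 2 of the 3-day group. These comparisons share arrays with those against saline.

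Between 14 and 7 days 0 members were called, and 0 of all probes (limma, 0 members and 404 probes at an unadjusted p below 0.05). All 9 members read higher at 14 than at 7 days, by 0.02 (Dusp1) to 0.38 (Arc) on the log2 scale, with a median of 0.14 beside -0.003 over all probes. The closest to the threshold was Egr4, with a difference of 0.31 and an interval from -0.04 to 0.66. The mean levels of Junb, Egr4 and Arc at 14 days lay between those at 7 days and in saline, and differed from neither past the threshold.

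In muscle 6 members were detected on enough arrays to be tested: Fos, Junb, Egr1, Egr2, Arc and Dusp1. None was called after 3, 7 or 14 days, while over all 12977 probes the shares called were 0, 19.7% and 18.8%. By limma, 1 member had an unadjusted p below 0.05 after 3 days (Fos), 0 after 7 days and 0 after 14 days. Muscle Fos read 7.11, 7.43, 7.39 and 7.76 in saline and 7.68, 9.39, 9.31 and 7.05 after 3 days. Replicates 2 and 3 stood above every other array of these groups, and the mean difference of 0.94 ± 0.41 missed the threshold (adjusted p = 0.421). The same replicates were the highest of that group for Egr1 (10.62 and 11.17 against 9.72 and 9.59), for Junb (8.33 and 9.03 against 7.99 and 7.78) and for Dusp1 (12.13 and 12.07 against 11.73 and 11.61). After 7 days muscle Fos read 7.88, 7.08, 6.69 and 7.28, a change of -0.19 ± 0.41, and after 14 days 7.66, 7.82, 8.25 and 8.40, a change of 0.61 ± 0.41 (adjusted p = 0.308).

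Muscle Egr2 stayed between 5.83 and 6.75 on all 16 arrays, with a change of 0.13 ± 0.16 after 7 days. Muscle Dusp1 stayed between 11.46 and 12.13. Arc was detected on 4 of the 16 muscle arrays and Egr4 on none. The lowest Egr1 array in muscle was replicate 1 of saline at 8.89, and the other saline arrays read 9.59, 10.58 and 9.83. The spread within groups was large in muscle for some of the same genes: the within-group SD was 0.67 for Fos, 0.54 for Egr1 and 0.40 for Junb, beside a median of 0.18 over all muscle probes.

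**Figure D3:**
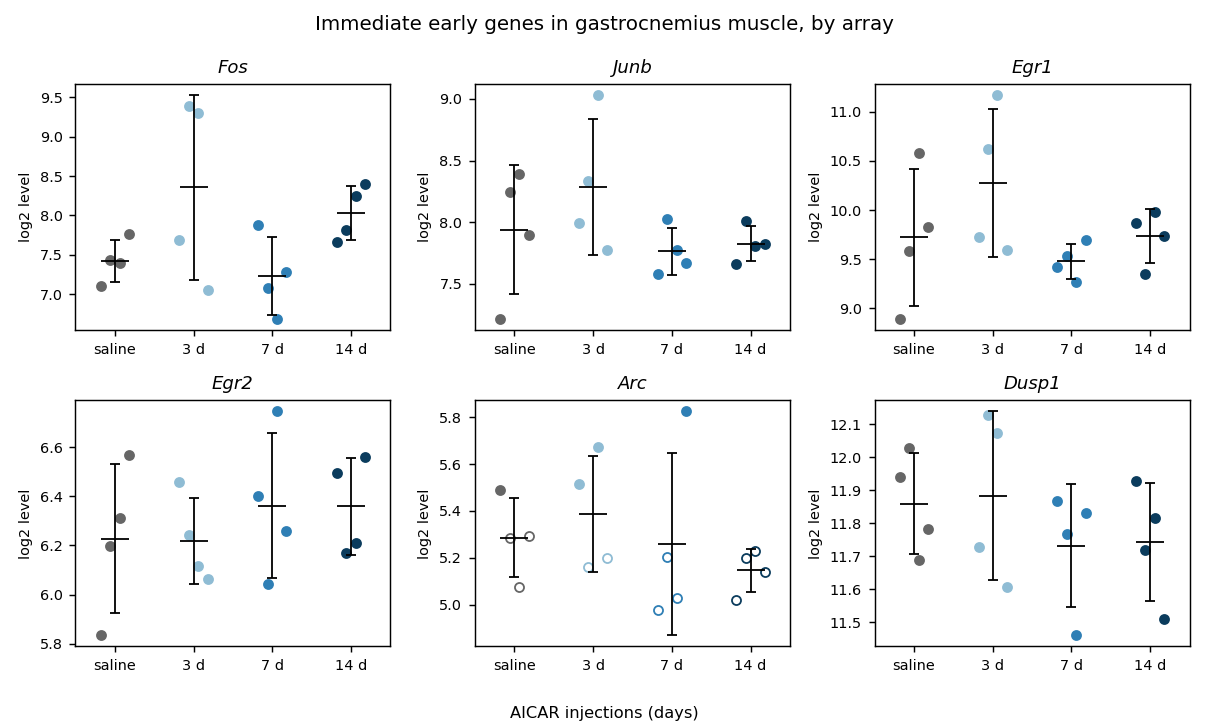
Log2 level of the 6 immediate early genes tested in muscle on each of the 16 muscle arrays, by days of AICAR, with mean and SD of 4 arrays per group; open points were not detected. The groups overlap in every gene, and replicates 2 and 3 of the 3-day group are the highest Fos arrays, at 9.39 and 9.31.

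Whether a member changed differently in the 2 tissues was tested in a joint fit of all 32 arrays, which has no term for the mouse. For it all 32 arrays were normalized together, so its levels and changes differ somewhat from those given above. After 7 days Egr2 differed: it changed by -1.01 in hippocampus and 0.13 in muscle, a difference of 1.14 ± 0.33 (adjusted p = 0.0144). It was the 1 member called of 6, against 17.3% of the 11315 probes tested. After 14 days Fos differed, with -1.10 in hippocampus and 0.58 in muscle, a difference of 1.68 ± 0.55 (adjusted p = 0.0354), against 17.1% of all probes. No member was called after 3 days, and 0 of all probes. For the 7-day change of Fos the difference was 1.06 ± 0.55 (adjusted p = 0.195), for Arc 0.95 ± 0.35 (adjusted p = 0.0627) and for Junb 0.54 ± 0.35 (adjusted p = 0.307). A difference between tissues was thus called for Egr2 at 7 days and Fos at 14 days only. Each was 1 of 6 members, near the share over all probes, so it is not read as a trait of the members. The Fos difference joins the fall in hippocampus with a rise in muscle that was not called there. Over all durations 2 differences were called. That total was 1 without replicate 1 or 2 of the 14-day group or replicate 2 or 3 of saline in hippocampus, and without replicate 3 or 4 of the 14-day group or replicate 1, 2 or 3 of saline in muscle. It was 4 without replicate 2 or 4 of the 3-day group in hippocampus.

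In saline animals, read from arrays of both tissues normalized together, most members had higher levels in hippocampus. Junb, Egr1, Egr2, Egr4 and Arc were higher there and Dusp1 was higher in muscle, 6 of the 9 members tested, while 81.1% of all 15321 probes differed between the tissues. Egr1 was 8.28-fold higher in hippocampus (12.72 against 9.67) and Arc 18.2-fold (9.58 against 5.40, with 1 of 4 muscle arrays detecting it). Egr4 was at least 18.8-fold higher, being undetected on the muscle arrays. Junb was 1.52-fold and Egr2 1.51-fold higher. Dusp1 was 3.18-fold higher in muscle. Fos, at -0.75 in muscle against hippocampus on the log2 scale, missed the threshold (adjusted p = 0.0776), as did Npas4 (adjusted p = 0.0563), and Fosb was undetected on the saline arrays of both tissues.

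Within the hippocampal groups the members varied together from array to array. With each group's mean removed, all 36 pairs among the 9 tested members had a positive Pearson r over the 16 arrays, with a median of 0.66 and a range from 0.20 to 0.96. Arc and Junb had the highest r, 0.96. Fos had an r of 0.84 with both Arc and Egr4, and 0.81 with Dusp1. Fosb was the least tied, with r between 0.20 and 0.42 to the others. Egr1, which was called in no comparison between hippocampal groups, still had an r of 0.62 with the mean of the other members, beside 0.91 for Fos. These values share the arrays and their normalization and are given as a description. In muscle 13 of 15 pairs among 6 members were positive, with a median r of 0.16.

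The spread itself was wide for most of them. The within-group SD in hippocampus was 0.53 for Fos and for Npas4, 0.42 for Arc, 0.41 for Egr2 and 0.35 for Junb, all above the 95th percentile of the 13659 probes, whose median was 0.17. Egr1, at 0.15, was near the 39.4th percentile.

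Averaged over the 9 members in SD units, the deviation of an array from its group mean split by the replicate number in the labels. Replicates 1 and 2 lay below their group mean in all 4 groups, from -1.60 to -0.15, and replicates 3 and 4 lay above it in all 4, from 0.23 to 1.32. The largest deviations were those of the 3-day replicates 1 (-1.60, with 0 of 9 members above the group mean) and 4 (1.32, with 8 of 9 above). Over all probes no such tie between equal replicate numbers was seen: the mean correlation of deviations between arrays of equal number was -0.05 in hippocampus. What the numbers stand for is not given in the sources used here, and their part in the spread was not tested.

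**Figure D4:**
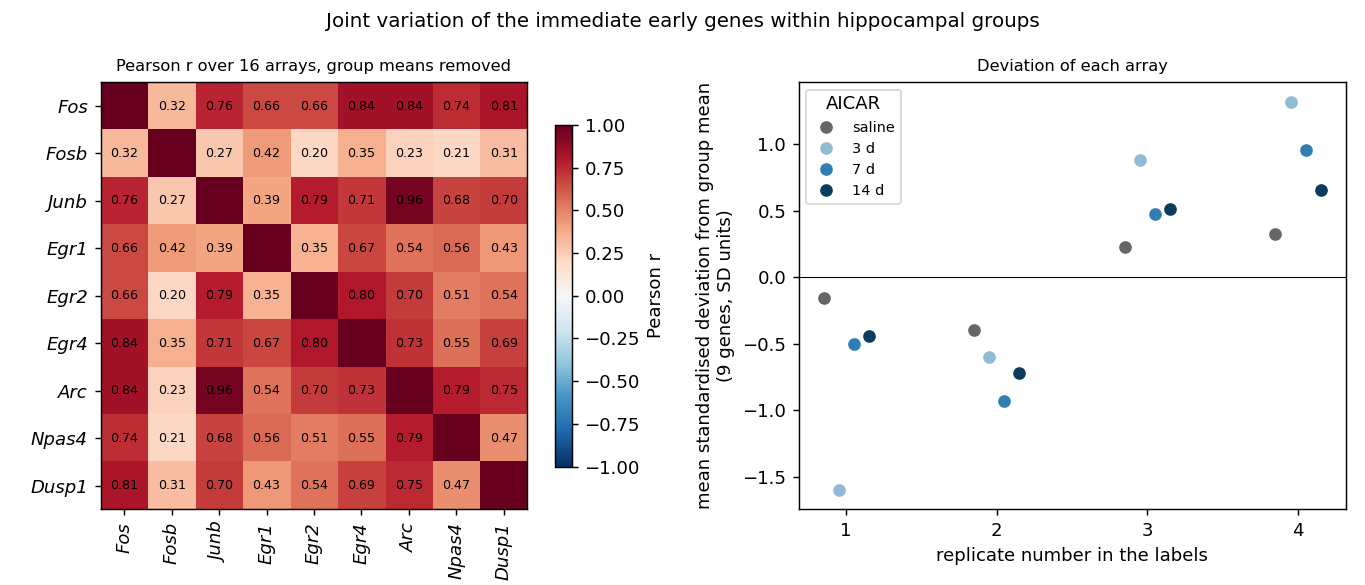
Left, Pearson r between the 9 tested members over the 16 hippocampal arrays after each group's mean was removed; all 36 pairs are positive, from 0.20 to 0.96. Right, the mean deviation of each array from its group mean over the 9 members, in SD units, by replicate number; replicates 1 and 2 lie below 0 and replicates 3 and 4 above it in all 4 groups.

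Among the 9534 genes with a tested probe, the 6 non-members closest to this shared variation were Atxn2l (r = 0.90), D1Pas1 (0.87), Zpr1 (0.83), Cds2 (0.83), Grasp (0.82) and Ctnnbl1 (0.82), and the 3 farthest in the opposite sense were Ogfr (-0.92), Dsg2 (-0.84) and Acads (-0.83). The likeness is the r over 16 arrays between a gene and the mean of the standardised members, group means removed, and these are the extremes of a long ranking. Grasp encodes a synaptic scaffold of glutamate receptors and Cds2 an enzyme of phosphoinositide synthesis. Under treatment these genes differed among themselves. Atxn2l, an RNA-binding protein gene, was 1.25 ± 0.22 higher after 7 days (adjusted p = 0.000905), opposite in sign to Fos, and Zpr1 was 0.34 ± 0.11 higher (adjusted p = 0.0342). D1Pas1 (0.18), Cds2 (-0.18), Grasp (-0.10) and Ctnnbl1 (-0.16) missed the threshold.

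A list of 38 symbols of other immediate early genes, chosen from textbook knowledge and with an older name included, had 24 genes tested in hippocampus. Their r with the members' mean had a median of 0.27, with 18 of 24 positive, beside a median of -0.01 and 49.5% positive among all other genes. Crem, Per1, Gadd45g and Dusp6 had an r above 0.5, and are named after their values were seen. Under treatment this list moved in both directions. After 7 days Gadd45b (0.73 ± 0.16), Homer1 (0.47 ± 0.11) and Per1 (0.45 ± 0.11) were higher and Csrnp1 (-0.43 ± 0.08) and Dusp4 (-0.36 ± 0.10) were lower, with adjusted p between 0.00153 and 0.0112, each read from the gene's brightest probe. Other probes of 2 of these genes went the other way: a Homer1 probe was lower (-0.66, adjusted p = 0.00155) and a Per1 probe read -0.32 (adjusted p = 0.0807). That is 3 higher and 2 lower of 24, where 12.2% and 15.4% of all genes were called. After 14 days Per1 (0.61), Homer1 (0.44), Gadd45b (0.52) and Plk2 (0.33) were higher and Csrnp1 (-0.28) was lower by the brightest probe, where 12.6% and 17.5% of all genes were called. The same other probes read -0.36 for Homer1, past the threshold as lower (adjusted p = 0.0409), and -0.34 for Per1 (adjusted p = 0.0656), so neither gene has a settled direction. The list's median change was 0.01 after 7 days and 0.02 after 14, beside -0.05 and -0.06 over all genes. Gadd45b encodes a stress-induced protein linked to DNA demethylation, Homer1 a synaptic scaffold, Per1 a circadian repressor and Csrnp1 a nuclear factor.

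Of the delayed genes that activity induces through these factors, 12 of 15 were tested. After 7 days Bdnf, the neurotrophin, was lower by -0.30 ± 0.08 (adjusted p = 0.0105), while its other probe read -0.05 (adjusted p = 0.885), and Sst, the peptide of a class of interneurons, was higher by 0.43 ± 0.11 (adjusted p = 0.0110). After 14 days Pdyn, the dynorphin precursor of granule cells, was higher (0.33 ± 0.09) and so was Sst (0.34 ± 0.11), with 0 lower. The other Pdyn probe read 0.22 and missed the threshold (adjusted p = 0.455). By the brightest probes, 1 of 12 was higher and 1 lower after 7 days, and 2 higher after 14, beside the shares of all genes given above. The r of the 12 genes with the members' mean had a median of 0.34, with 11 of 12 positive.

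For the kinases, channels and factors upstream, 35 symbols were listed, older names of the same gene included. Of these 19 were tested, and calls went both ways. Prkaca, the catalytic subunit of protein kinase A, was higher by 0.72 ± 0.08 after 7 and 0.79 ± 0.08 after 14 days. Adcy1, a calcium-stimulated adenylyl cyclase, was higher by 0.83 ± 0.09 and 0.87 ± 0.09. The CREB coactivator Crtc1 (-0.30 and -0.18) and the CREB and histone kinase Rps6ka5 (-0.37 at both times) were lower. Probes of the activity-regulated factor Mef2a disagreed: the brightest was lower (-0.46 and -0.51) and the other higher (0.64, adjusted p = 0.0487, and 0.79, adjusted p = 0.0171). For Prkaca, too, the other probe did not follow, at -0.20 and -0.02 (adjusted p = 0.151 and 0.906). Both probes of Mef2c, a relative of Mef2a, read lower at 7 and 14 days. The brightest changed by -0.35 (adjusted p = 0.103) and -0.63 (adjusted p = 0.00704). The other changed by -0.52 (adjusted p = 0.0327) and -1.01 (adjusted p = 0.000512). In all, by the brightest probes, 3 were higher and 3 lower of 19 after 7 days, and 5 higher and 4 lower after 14, beside the shares of all genes given above. Within groups the r of these genes with the members' mean had a median of -0.02, with 8 of 19 positive and the highest at 0.56 (Camkk2) and 0.46 (Camk2a), both named after their values were seen.

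Markers of cell types were read beside these changes. In bulk tissue fewer cells of a type and less RNA per cell cannot be told apart. The summed level of the 5 detected and 3 undetected neuron markers ranged from 39916 to 42325 in saline and from 40976 to 42693 after 7 days. That of 4 dentate granule markers, of which Calb1 and Tdo2 were detected on no array, ranged from 6767 to 7454 in saline and 5701 to 7586 after 7 days, with 1 of the 2 tested called lower after 7 days and 0 after 14. The 4 CA1 markers summed to 9728 to 11801 in saline and 9588 to 10520 after 7 days. Each of these ranges overlapped. The 4 CA3 markers did not overlap, at 1841 to 2127 in saline against 2381 to 2799 after 7 days and 2460 to 2821 after 14, with 1 of 4 called higher and 1 lower after 7 days. The 6 astrocyte markers summed to 23742 to 24880 in saline against 21180 to 23024 after 7 days, also without overlap. Of these 6, 1 was called higher and 1 lower after 7 days. Choroid plexus markers, which mark tissue next to the hippocampus, ranged from 2804 to 33990 in saline, 4286 to 41044 after 7 days and 33042 to 43407 after 14 days. The 4 red blood cell markers ranged from 3177 to 5273 in saline, 3979 to 14899 after 3 days, 727 to 3818 after 7 days and 502 to 5684 after 14 days, with 0 called after 7 or 14 days. The part of these shifts in the changes of the immediate early genes was not tested.

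**Figure D5:**
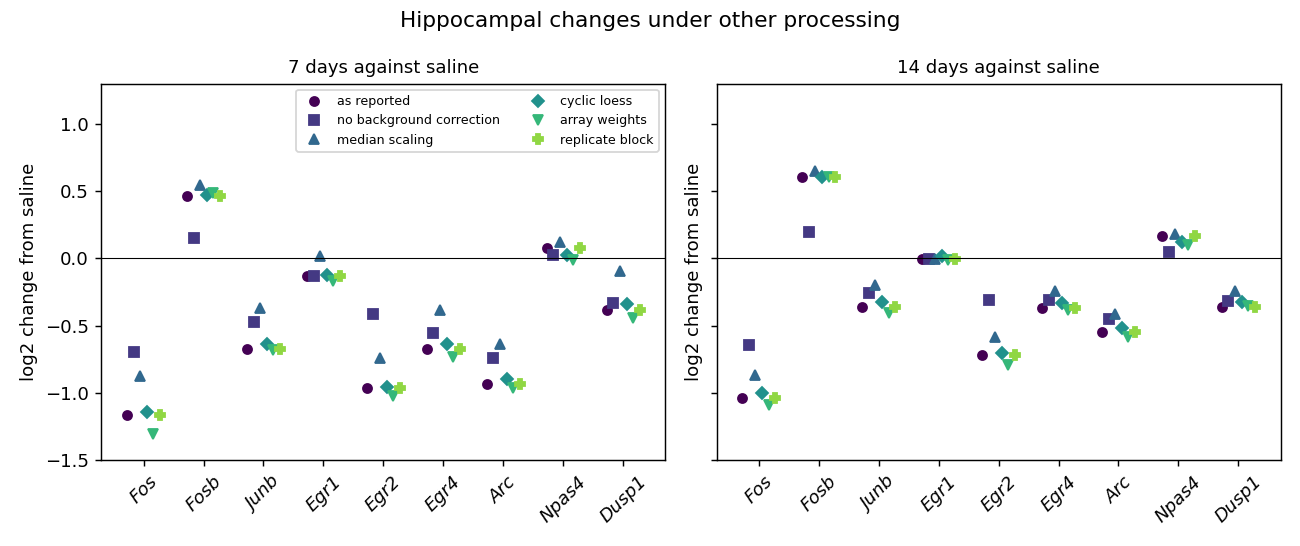
Log2 change from saline of the 9 tested members in hippocampus after 7 days (left) and 14 days (right) under 6 ways of processing. Fos, Junb, Egr2, Egr4 and Arc lie below 0 and Fosb above it under each of the 6, while the falls of the first 5 are smaller with no background correction (Fos -0.70 at 7 days) and with median scaling (Fos -0.87).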

How the data were processed

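Total RNA was amplified and hybridised to Illumina MouseRef-8 bead arrays, with BeadStudio 1.6.0 named in the submitters' processing notes. The deposited table holds an intensity per probe and array, which the authors neither corrected nor normalized, and a detection p-value beside it. The deposited series values are a score: each is the array's log2 intensity, centred on the mean and divided by the SD of that array, as checked on all 32 arrays (largest deviation 5e-10). Symbols come from the platform table. No genome build is named for the probes.

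With limma 3.58.1 in R 4.3.3, intensities were background-corrected by normexp from the detection p-values (offset 16), quantile-normalized within each tissue and put on the log2 scale. Probes detected (p below 0.05) on at least 4 of 16 arrays were tested: 13659 in hippocampus, 12977 in muscle. One linear model per tissue (lmFit, eBayes) gave each comparison. A joint fit of 32 arrays, background-corrected in the same way but quantile-normalized together, gave the tissue differences. P-values are two-sided and adjusted over all probes of a comparison by Benjamini and Hochberg. Errors beside changes are standard errors. The fits were tested on simulated data.

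The members, lists and alternatives were chosen with earlier results of these data known. Named genes are all member probes, the up to 4 called probes of smallest p per list, direction and comparison, and the 6 highest and 3 lowest genes by likeness; the text gives these in part. The brightest probe stands for a gene. Over all probes, equal replicate numbers showed no pairing of samples: 4 of 24 hippocampal and 2 of 24 muscle pairs of equal number had a correlation of deviations above 0.1. Alternatives were no background correction, median scaling, cyclic loess, the authors' series values, other detection filters, trended robust variance, array weights, a replicate block and leaving out each array. Promoters were searched with Python 3.11.15, and figures were drawn with matplotlib 3.10.9.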

Additional observations from a re-analysis of the deposited data

Results flagged for a closer look

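In the hippocampal 7-day group the Junb level of replicate 4 was 8.12, apart from the other 3 arrays of the group, of which the nearest read 7.88. The gap was 0.868 of the group's range. It was the 1 array set apart in this way among 60 groups of 4 values tested over the member genes, where chance sets apart about 1 in 20 groups. Replicate 4 was also the highest of that group for Fos, Fosb, Egr1, Arc, Npas4 and Dusp1.

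The change of Egr2 after 7 days differed between the tissues by 1.14 on the log2 scale (muscle minus hippocampus, adjusted p = 0.0144 by limma over all probes). The change of Fos after 14 days differed by 1.68 (adjusted p = 0.0354). The 4 muscle arrays of Fos after 14 days, at 7.66 to 8.40, overlapped muscle saline at 7.11 to 7.76.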

How the results depend on the processing

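Over 1209 member values recomputed, 1142 kept their side of the threshold and their direction, 47 lost the call, 20 gained it and 0 called values changed sign, while 65 values below the threshold did. Counts of members called were unchanged to within 1.5 times except as follows. For 7 against 3 days median scaling gave 2 in place of 4. For 14 against 3 days no background correction, probes detected on all 16 arrays and the replicate block each gave 3 in place of 1. For tissue differences median scaling gave 1, trended robust variance 1, array weights 4 and the replicate block 4, in place of 2. Leaving out 1 array gave 2 to 5 members at 7 days, 0 to 2 at 14 days, 3 to 6 for 7 against 3 days, 0 to 3 for 14 against 3 days 1 to 4 tissue differences and 4 to 7 probes that differ between the tissues in saline; for the tissue comparisons this was chosen after seeing the data. The replicate block gave 5 at 7 days and 4 at 14 days. Over all probes equal numbers showed no tie, while the members themselves split by number in hippocampus. A gain under the block is therefore not read as a stronger effect, and its source was not tested. The causes were not tested. Dim probes (Fosb, Npas4) are limited by signal over background, and Nr4a1 gave none.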
